A study of Oryza sativa Indica Group with 8 samples.

Results

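Leaves of rice plants that had met salt at both the vegetative and the reproductive stage were compared with leaves of plants that met salt at the reproductive stage alone. The comparison asks whether an earlier salt shock changes the leaf of a plant that is shocked late. Its members are 4 of the 8 libraries of the study, chosen by their titles. They are 2 libraries of plants shocked at stage V4 and again at stages R0-R1, called double-shock here, and 2 of plants shocked at R0-R1 only, called reproductive-shock. The other 4 libraries are 2 of plants shocked at V4 only, called vegetative-shock, and 2 of control plants that were never given salt. All plants were of the indica genotype BRS Ligeirinho, labelled sensitive to salt, were germinated for 7 days and were then kept in pots of washed sand under glass, on water and nutrient solution. The labels used here give neither the strength nor the duration of a shock, nor when leaves were taken, so any difference in sampling time and the early shock itself cannot be told apart. Nor do they tie a group's libraries to different plants. The p-values below therefore measure spread from library to library, part or all of which may be technical.

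Salt reaches a leaf first as osmotic stress, when roots take up water less easily, and later as an excess of sodium and chloride in the leaf blade. Abscisic acid signalling, ion transport, osmolyte synthesis and changes in photosynthesis are the best known parts of the response. Plant stress memory is the name given to a state in which a past stress alters the response to a later one. At the level of transcripts it is usually described as a gene that responds more, or less, to the second event than to the first, or as a gene that stays altered between events.

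The tables give locus identifiers and no gene names. Of 55986 identifiers, 0 were found as written in the RefSeq gene table used here (assembly ASM3414082v1) and 1 was found once the prefix LOC_ was removed. Loci are therefore described by identifier, level and chromosome, at most 2 in each direction per comparison, with no function given, and the leaf label could not be checked against leaf marker genes. The first number of an identifier is the chromosome. The 4 libraries compared held 10464740 to 11727657 counted reads each. Their share of multiply aligned reads was 13.6% in double-shock replicate 1 and 13.8% in reproductive-shock replicate 2, against 9.32% and 9.51% in the other library of each group, so each group had 1 library of either kind.

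No locus passed the threshold between double-shock and reproductive-shock leaves. Of 18251 loci tested, 0 (0%) reached an adjusted p below 0.05 in edgeR's quasi-likelihood test with Benjamini-Hochberg adjustment, with a minimum of 0.0964. Without adjustment, 1469 loci (8.05%) had a p below 0.05, where 5% is the share under no difference. Of these, 616 (3.38%) stood higher in double-shock leaves and 853 (4.67%) stood lower, so 58.1% of them were on the low side. Both the excess and the lean depended on the fit. DESeq2 gave 842 such loci (4.61%), and 951 (5.21%) were left without reproductive-shock replicate 1. Without double-shock replicate 2 the balance turned, with 537 higher and 505 lower, and all 17 loci that edgeR then called at an adjusted p below 0.05 were higher. The differences were modest in size: the median log2 difference was 0.60 among the 616 and -0.52 among the 853, against 0.01 over all loci tested. In 3736 loci (20.5%) both double-shock libraries lay above both reproductive-shock libraries, and in 3857 (21.1%) both lay below.

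Other tests of the same counts gave calls. DESeq2 called 72 of the 11174 loci to which it gave an adjusted p (0.644%), of which 18 rose (0.161%) and 54 fell (0.483%) in double-shock leaves. The edgeR likelihood ratio test called 95 (0.521%), with 28 up and 67 down, and 59 of the DESeq2 calls were among them. All 72 DESeq2 calls had libraries that did not overlap between groups, and 43 were among the 59 loci at an unadjusted p below 0.001 in the quasi-likelihood test. Those 59 loci (0.323% of those tested, where 0.1% is the share under no difference) comprised 19 higher in double-shock leaves (0.104%) and 40 lower (0.219%).

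**Figure D1:**
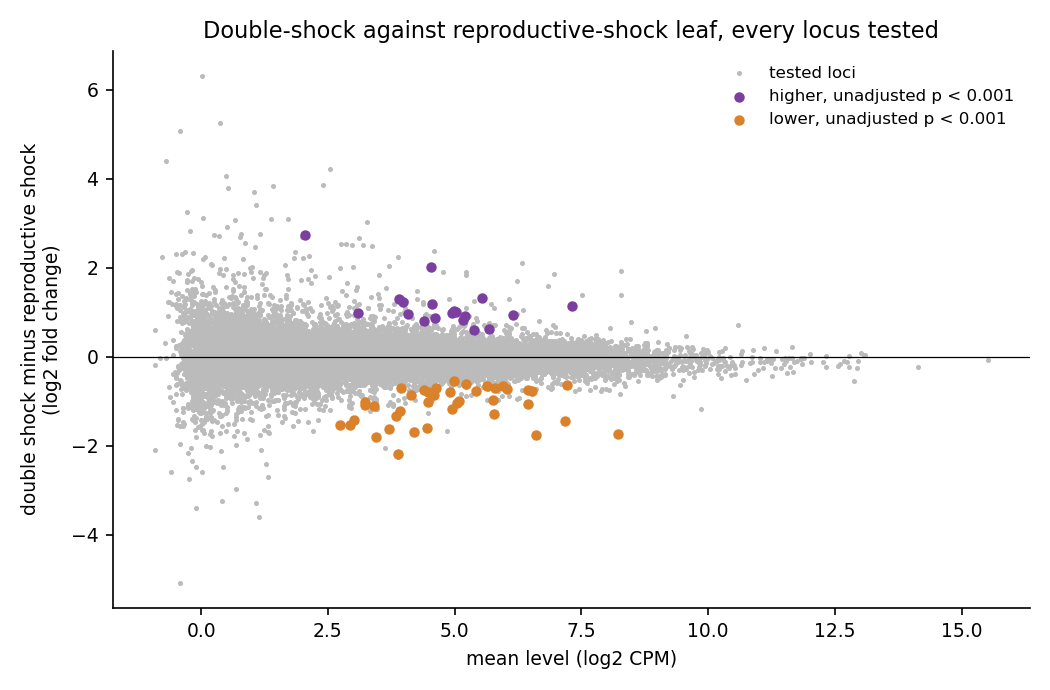
Log2 difference of double-shock minus reproductive-shock leaves (y axis) against mean level in log2 CPM (x axis) for each of the 18251 loci tested; purple and orange points are the 19 higher and 40 lower loci at an unadjusted p below 0.001. The cloud widens toward low levels, and the coloured loci lie at its edges at middle and high levels.

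Pairs of libraries were also compared within and between the groups. Over 15577 loci with at least 20 reads on average, the 2 double-shock libraries differed at least 2-fold from each other at 478 loci (3.07%). The 2 reproductive-shock libraries did so at 336 (2.16%). Pairs taken across the groups differed at 563 and 525 loci when double-shock replicate 1 was in the pair. They differed at 403 and 401 when double-shock replicate 2 was. Double-shock replicate 2 was thus nearer, by this count, to either reproductive-shock library than to its own partner. On average the 4 pairs between groups differed at 473 loci and the 2 pairs within groups at 407, which is 66 fewer. An exact permutation test over 4 libraries (two-sided) cannot go below p = 0.333, the value reached here, so it cannot show whether that gap is larger than the spread between libraries.

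A threshold that is missed does not show that the leaves were alike, so the interval of each difference was examined. For 12589 of the 18251 loci (69%) the 95% interval of the log2 difference lay within 2-fold of no change in either direction. Precision followed the number of reads. The loci were cut into 4 bins of equal size by level. In the lowest bin, from 0.529 to 3.64 CPM (counts scaled by library size, not corrected for locus length), 14.9% were bounded in this way and the median half-width of the interval was 1.04 log2 units. In the next bin 72.5% were, with a half-width of 0.58. In the upper bins, which begin at 12.3 and 35.9 CPM, the shares were 92.8% and 95.8%, with half-widths of 0.37 and 0.32. A 2-fold difference thus lay outside the interval at most loci above 12.3 CPM, while in the lowest bin the interval mostly reached beyond 2-fold. The intervals are those of single loci, so they do not say which differences would be called after adjustment. The interval lay wholly beyond 2-fold at 17 loci, 7 higher and 10 lower, and these intervals are not adjusted for the number of loci.

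**Figure D2:**
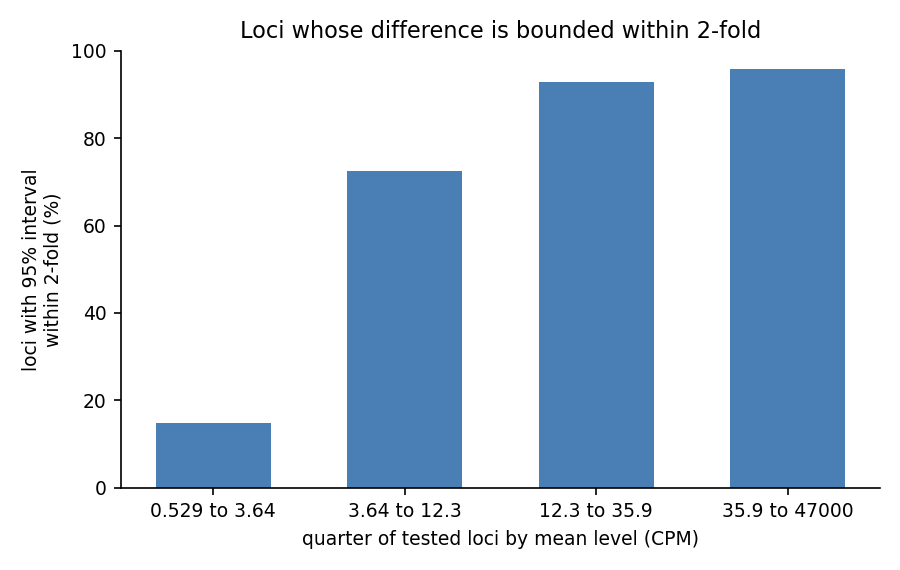
Share of loci, in percent, whose 95% interval for the double-shock minus reproductive-shock difference lies within 2-fold (y axis), in 4 bins of the tested loci by mean CPM (x axis). The share climbs from 14.9% in the lowest bin to 95.8% in the highest.

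The share of loci at an unadjusted p below 0.05 grew with level in the same way, from 5.04% in the lowest bin to 11.2% in the highest. The balance of directions changed along it: 127 higher against 103 lower in the lowest bin, and 165 against 348 in the highest. Among the 50 loci with the most reads, 42 were lower in double-shock leaves and 8 higher, with a median log2 difference of -0.11, and 0 of the 50 had an unadjusted p below 0.05 in edgeR's test (smallest adjusted p 0.626). That lean depended most on reproductive-shock replicate 2, in which these loci took 29.2% of the reads. They took 26.3% in replicate 1 and 27.6% and 25.8% in the double-shock libraries. Without reproductive-shock replicate 2, 21 of the 50 were lower, and without replicate 1 it was 47. Without double-shock replicate 1 it was 43, and without double-shock replicate 2 it was 32. By chromosome, the share of tested loci on the low side at an unadjusted p below 0.05 ran from 3.33% on chromosome 12 to 5.69% on chromosome 4. The share on the high side ran from 2.49% on chromosome 6 to 4.22% on chromosome 2, so loci of both directions came from all 12 chromosomes.

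Detection in one group alone was not seen at 10 reads. With at least 10 reads in both libraries of one group and 0 in both of the other, 0 loci were found in either direction, while 21146 loci had reads in all 4 libraries. With at least 5 reads there were 3 loci in double-shock leaves and 0 in reproductive-shock leaves. LOC_Os05g03050 had 6 and 7 reads in the double-shock libraries, 0 in both reproductive-shock and both vegetative-shock libraries, and 3 and 4 in control. LOC_Os07g05850 had 7 and 5 double-shock reads, 5 in vegetative-shock replicate 2 and 0 in the remaining libraries. A count of 0 allows up to 3 reads, which is 0.26 and 0.269 CPM in the reproductive-shock libraries when scaled by total counts alone. This limit covers counting error only, so these few reads give no firm absence.

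The loci of smallest p were examined library by library. LOC_Os02g45930 on chromosome 2 stood at 49.8 and 36.8 CPM in the double-shock libraries and at 138 and 155 CPM in the reproductive-shock libraries. In vegetative-shock leaves it stood at 161 and 128 CPM, and in control at 57.7 and 51.7 CPM. Its double-shock libraries were therefore the lowest of the 8, next to control, and all 4 libraries of plants shocked once were more than 2-fold above them. The log2 difference of double-shock minus reproductive-shock was -1.76 (SE 0.18, 95% interval -2.17 to -1.34, edgeR adjusted p = 0.096).

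LOC_Os05g08420 on chromosome 5 was also lower in double-shock leaves. It stood at 10.1 and 8.51 CPM there, at 27.7 and 29.1 CPM in reproductive-shock leaves, at 34.1 and 26.1 CPM in vegetative-shock leaves and at 21.3 and 18 CPM in control. Here the double-shock libraries lay below control too, without overlap. The log2 difference from reproductive-shock leaves was -1.61 (SE 0.18, interval -2.02 to -1.20, edgeR adjusted p = 0.096), and that from control was -1.08 (SE 0.18, edgeR adjusted p = 0.077).

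On the high side, LOC_Os02g56250 on chromosome 2 stood at 31.1 and 29.2 CPM in double-shock leaves against 12.9 and 13.6 CPM in reproductive-shock leaves. Its vegetative-shock libraries were at 11.9 and 15.3 CPM and its control libraries at 34.3 and 38.7 CPM. Single-shock libraries of either stage thus overlapped each other, and double-shock libraries lay between them and control. The log2 difference was 1.19 (SE 0.15, interval 0.84 to 1.54, edgeR adjusted p = 0.18).

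LOC_Os12g02200 on chromosome 12 stood at 40.4 and 34.5 CPM in double-shock leaves and at 19.7 and 18.3 CPM in reproductive-shock leaves. It stood at 30.2 and 26.5 CPM in vegetative-shock leaves and at 38.6 and 37.5 CPM in control, within the span of the double-shock libraries. The log2 difference was 0.98 (SE 0.13, interval 0.67 to 1.28, edgeR adjusted p = 0.18). The tips of the short arms of rice chromosomes 11 and 12 carry a recent duplication, and this locus lies there by its number, so its reads may be shared with a near-identical copy and the count is uncertain.

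The differences were also read between libraries of like multiply aligned share. Within the pair of high share, double-shock replicate 1 minus reproductive-shock replicate 2, the log2 difference was -1.63 for LOC_Os02g45930 and -1.50 for LOC_Os05g08420. Within the pair of low share it was -1.90 and -1.68. For LOC_Os02g56250 these values were 1.18 and 1.17, and for LOC_Os12g02200 they were 1.13 and 0.80. Each pair holds 1 library a group, so it has no replicate check. The sign of each value was fixed by the choice of loci whose libraries do not overlap, and the part of the multiply aligned share in these differences was not tested.

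**Figure D3:**
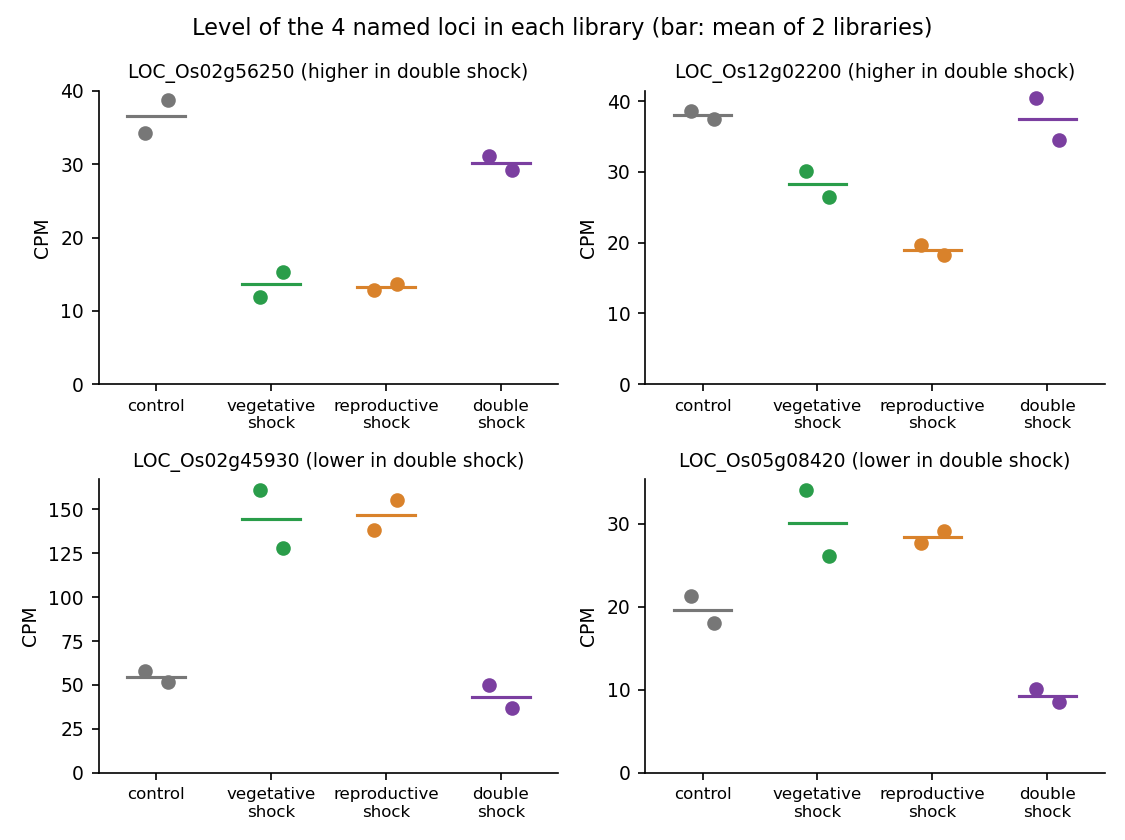
Level in CPM (y axis) of the 4 named loci in every library of the 4 groups (x axis); points are libraries and bars the mean of 2. In LOC_Os02g45930 the double-shock libraries, at 49.8 and 36.8 CPM, lie near control, at 57.7 and 51.7 CPM, and far from either single shock, and the other panels show the order given in the text.

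Against control, each of these loci differed more after the single late shock than after both shocks, except LOC_Os05g08420. The log2 differences from control were 1.42 after the reproductive shock (edgeR adjusted p = 0.017) and -0.34 after both (0.54) for LOC_Os02g45930. For LOC_Os02g56250 they were -1.46 (0.011) and -0.27 (0.54), and for LOC_Os12g02200 -1.001 (0.019) and -0.02 (0.96). LOC_Os05g08420 had 0.53 (0.21) and -1.08 (0.077). Both columns of values use the same control libraries and the same libraries that chose these loci, so they describe levels and add no evidence.

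The 59 loci at an unadjusted p below 0.001 were chosen without the vegetative-shock and control libraries, apart from the shared estimate of the spread. The filter and the scaling factors also used all 8 libraries. This reading was added after the data were seen. A negative relation between the early-shock differences without and with the later shock was already known, so the reading is a description and not a separate test. Vegetative-shock and control libraries were not balanced in multiply aligned share. Control replicate 1 had 13.5%, against 9.6% in control replicate 2 and 9.99% and 9.5% in the vegetative-shock libraries. All 19 loci of the higher set were lower in vegetative-shock than in control leaves, with a median log2 difference of -0.72 (range -3.51 to -0.22). Of the 40 loci that were lower in double-shock leaves, 35 were higher in vegetative-shock than in control leaves, with a median of 0.42 (range -0.37 to 1.40). Over all loci tested the median of vegetative-shock minus control was 0.00, with 50.6% above 0. At these loci the early shock thus went with opposite differences in plants without and with the later shock, at 91.5% of the 59. The share of all loci tested with opposite signs is not given here, so the 91.5% has no matched baseline. The test of that opposition itself, the interaction of the shocks, called 18 of all loci tested (0.0986%), and 14 of these were among the 59, a choice that uses part of the same contrast.

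The same loci were also read library by library. At 18 of the 19 loci (94.7%, against 17.8% of all loci tested) both vegetative-shock libraries lay below both control libraries. At 30 of the 40 (75%, against 16.5%) both lay above. The other way round it was 0 of the 19 and 3 of the 40. The p that chose these loci used the spread of all 8 libraries, so groups without overlap were favoured in either direction. The shares over all loci are therefore not a matched baseline. Relative to the mean of the 8 libraries at each locus, the 19 loci had a median log2 level of 0.46 and 0.44 in the control libraries and -0.33 and -0.21 in the vegetative-shock libraries. The 40 loci had -0.11 and -0.30 in control and 0.20 and 0.19 in vegetative-shock leaves. In both sets control and vegetative-shock libraries did not overlap, and the double-shock libraries stood on the side of control. For the 19 loci they overlapped control, and the median log2 difference of double-shock minus control was -0.06, with 6 loci higher. For the 40 loci they lay below control, at -0.50 and -0.51. The median difference from control there was -0.35, with 7 of the 40 loci higher. The reproductive-shock libraries stood on the side of the vegetative-shock libraries. Choosing the loci fixed double-shock and reproductive-shock libraries on opposite sides, so this order restates the signs given above and adds no evidence.

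**Figure D4:**
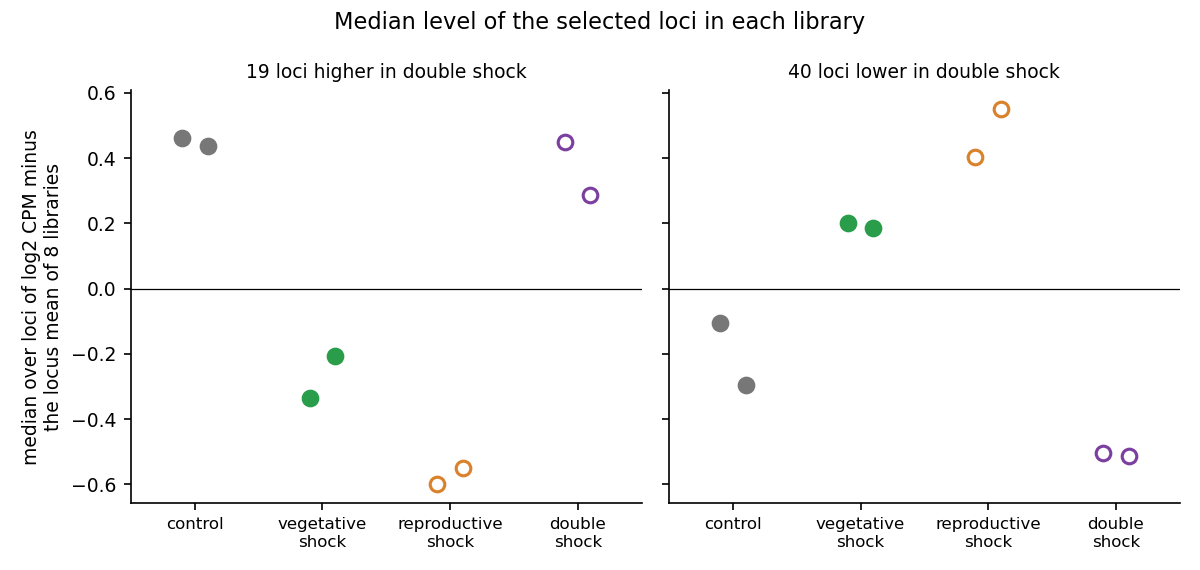
Median over loci of log2 CPM minus the mean of the 8 libraries at each locus (y axis), for the 19 higher loci (left) and the 40 lower loci (right) in each library by group (x axis); open points are the libraries that chose the loci, filled points are control and vegetative-shock libraries. On the left, control libraries, at 0.46 and 0.44, lie with the double-shock side, and vegetative-shock libraries, at -0.33 and -0.21, with the reproductive-shock side. On the right, control libraries, at -0.11 and -0.30, lie between the double-shock libraries, at -0.50 and -0.51, and the vegetative-shock libraries, at 0.20 and 0.19.

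**Figure D5:**
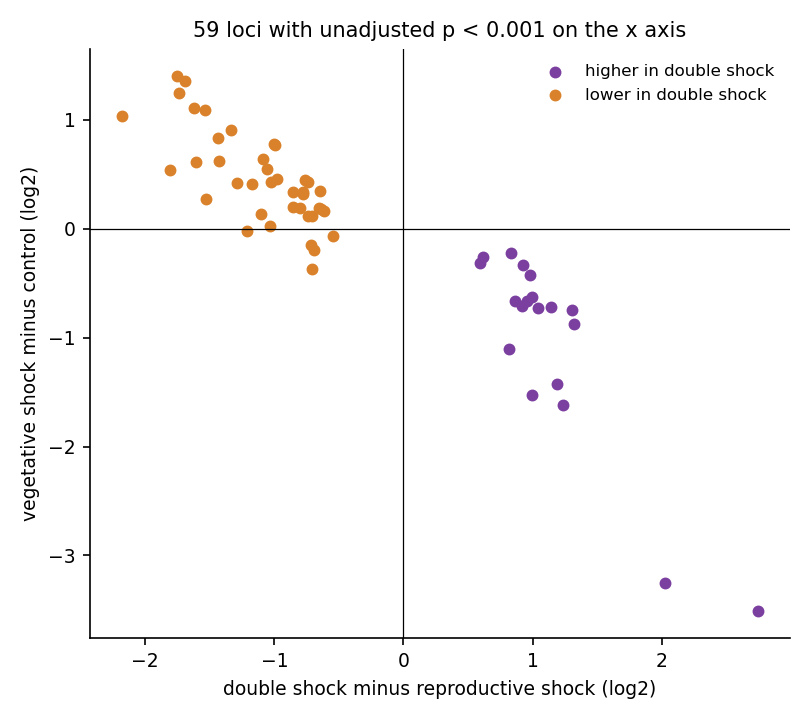
Vegetative-shock minus control (y axis) against double-shock minus reproductive-shock (x axis), both in log2 units, for the 59 loci at an unadjusted p below 0.001 on the x axis; each point is a locus and the axes share no library. All 19 purple points lie below 0 on the y axis and 35 of the 40 orange points lie above it.

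How many loci were chosen depended on the libraries. Without double-shock replicate 1, 9 of 11 higher and 16 of 16 lower loci had the opposite sign in vegetative-shock minus control. Without double-shock replicate 2 these were 50 of 63, at a median of -0.33, and 9 of 12. Without reproductive-shock replicate 1 they were 3 of 3 and 24 of 27, and without replicate 2, 7 of 10 and 8 of 14. The majority was opposite in sign in each of these fits, but narrowly so in the last. Of the DESeq2 calls, 15 of the 18 that rose were lower in vegetative-shock than in control leaves, and 46 of the 54 that fell were higher. At a looser unadjusted p below 0.01 the medians shrank to -0.26 for 104 higher and 0.12 for 248 lower loci. With a term for the multiply aligned share, 14 of 16 higher loci were lower in vegetative-shock than in control leaves. Of the lower loci chosen with that term, 40 of 43 were higher there.

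The reverse choice was made from the vegetative-shock and control libraries, with values read in the double-shock and reproductive-shock libraries. No term for the multiply aligned share, in which the vegetative-shock and control libraries were not balanced, was fitted for this choice. At an unadjusted p below 0.001, 69 loci (0.378%) were lower in vegetative-shock than in control leaves. Of these, 60 stood above reproductive-shock leaves in double-shock leaves (87%, against 51.6% of all loci tested), with a median log2 difference of 0.55. On that side 29 of the 69 had an unadjusted p below 0.05, as did 3.38% of all loci tested. Both comparisons share the estimate of the spread at each locus. Loci chosen by a small p in the first are thus favoured to reach a small p in the second. The 3.38% is therefore not a matched baseline. The 20 loci (0.11%) that were higher in vegetative-shock leaves gave no stable direction. In double-shock leaves 12 were higher and 8 lower, with a median of 0.08, while at an unadjusted p below 0.05 it was 1 higher and 5 lower. With loci chosen at an unadjusted p below 0.01, 42 were higher and 78 lower, with a median of -0.13. Chosen without control replicate 2, 8 were higher and 16 lower, without double-shock replicate 2 it was 6 and 12, without reproductive-shock replicate 1 it was 6 and 15, and without reproductive-shock replicate 2 it was 16 and 5. Of the loci chosen here at an unadjusted p below 0.001, 10 were also among the 59. The median of 0.55 was 0.26 over 70 loci without vegetative-shock replicate 1, and the 69 loci became 40 without control replicate 2 and 35 without vegetative-shock replicate 2, of which 32 and 29 were higher in double-shock leaves.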

How the data were processed

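Per the labels' protocols, the 8 leaf libraries were made from total RNA with the Illumina TruSeq RNA V2 kit. The authors deposited raw read counts per locus, 1 table per library. The submitters' processing notes name STAR 2.7 and HTSeq 0.11.1, with FastQC 0.11.7, Trimmomatic and edgeR 3.8. Not given in the sources used here: build, annotation and strandedness of counting. Overlapping or duplicated loci therefore have uncertain counts. The 5 HTSeq summary lines (15.0% to 19.2% of reads) were left out. Loci kept by filterByExpr were fitted in edgeR 4.0.16 (R 4.3.3) over all 8 libraries, by group alone with TMM factors, with 4 residual and 4.77 prior degrees of freedom. CPM values use the TMM factors, except the limit for a count of 0, and an SE is a log2 fold change over the square root of its F. The procedure was tested on simulated data. The loci named are the first 2 in each direction by p among those whose libraries do not overlap and whose higher group averages at least 5 CPM, and for detection the 2 with most reads, ties broken by identifier. The 22 gene lists drawn up by symbol had 0 lists with a paired member and were not described. Members, lists and tests were chosen with earlier results of these data known, among them the negative relation between the early-shock differences without and with the later shock. The vegetative-shock reading of the 59 loci and the count over the 50 most abundant loci were added after the data were seen. Replicates differed beyond sampling noise (chi-square of 12.4 to 14.4 per degree of freedom). Alternatives were RLE factors, other filters, DESeq2 1.42.0, the likelihood ratio test, robust quasi-likelihood, the 4 libraries alone, a replicate block, a term for the multiply aligned share and leaving out each library.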

Additional observations from a re-analysis of the deposited data

Results flagged for a closer look

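For the 4 named loci the difference made by the early shock was tested between plants that did and did not meet the later one (edgeR quasi-likelihood test of the interaction, Benjamini-Hochberg adjusted over all loci, 18 of 18251 called). These loci were chosen on double-shock minus reproductive-shock, which is part of that interaction, so the tests are not independent of the choice. For LOC_Os02g45930 the early-shock difference was 1.40 without and -1.76 with the later shock, and the interaction was -3.16 (SE 0.25, edgeR adjusted p = 0.0066). For LOC_Os05g08420 it was 0.61 and -1.61, an interaction of -2.22 (SE 0.25, edgeR adjusted p = 0.027). For LOC_Os02g56250 it was -1.42 and 1.19, an interaction of 2.61 (SE 0.22, edgeR adjusted p = 0.0066). For LOC_Os12g02200 it was -0.42 and 0.98, an interaction of 1.40 (SE 0.19, edgeR adjusted p = 0.042). Without the later shock, the early-shock difference itself had an edgeR adjusted p of 0.051 for LOC_Os02g45930 and 0.38 for LOC_Os05g08420. It was 0.043 for LOC_Os02g56250 and 0.43 for LOC_Os12g02200. No alternative fit of the interaction is given, although the control libraries were not alike in multiply aligned share. Each direction held in both libraries of each group compared. With 2 libraries a group, no group could be searched for a library standing apart.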

How the results depend on the processing

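The 0 calls of the comparison remained 0 with RLE factors, with a filter of 1 CPM in 2 libraries, with the 4 libraries alone, with the replicate block and with the term for multiply aligned reads. There were 2 at an adjusted p below 0.10, 2 with robust quasi-likelihood, 72 with DESeq2, 95 with the likelihood ratio test and 501 without the low-count filter, a fit over 30913 loci whose estimated prior degrees of freedom were infinite, so no locus kept a spread of its own. Leaving out 1 library gave 0 to 17 calls, the 17 without double-shock replicate 2 and all higher there. Loci at an unadjusted p below 0.05 were 842 with DESeq2, 2285 without the filter and 951 to 1551 with a library left out. Loci bounded within 2-fold were 10511 to 12733 with a library left out. The 4 named loci kept their direction in all 17 alternatives, with adjusted p from 4.5e-22 to 0.69 for LOC_Os02g45930, 4.6e-14 to 0.69 for LOC_Os05g08420, 5.3e-08 to 0.72 for LOC_Os02g56250 and 5e-06 to 0.72 for LOC_Os12g02200.

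The median of 0.55 for loci low after the early shock alone was 0.65 with RLE factors, 0.60 with the 1 CPM filter, 0.24 at an unadjusted p below 0.01 and 0.26 to 0.77 with a library left out. That of the loci high after it, 0.08, ran from -0.41 to 0.32. The 19 higher loci's median in vegetative-shock minus control was -0.26 at p below 0.01 and -0.80 to -0.33 with a library left out. The 40 lower loci's was 0.12 at p below 0.01, 0.50 with the term for multiply aligned reads and 0.31 to 0.56 with a library left out. Of the 50 most abundant loci, 21 to 47 were lower. Detection in 1 group gave 3 loci at 5 reads. The cause of these shifts was not tested. Replicate numbers share no stated batch: deviations of same-numbered libraries correlated at 0.05 between double-shock and reproductive-shock groups, and from -0.15 (vegetative-shock with reproductive-shock) to 0.26 (vegetative-shock with double-shock) over the 6 pairs of groups, and the replicate block gave 1549 loci at an unadjusted p below 0.05. A fit without a library leaves 1 in its group, assumed to vary like the others.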
